A study of Mus musculus with 12 samples.

Results

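The mitochondrial ribosomal protein genes were taken as the protein-coding mouse genes whose symbol begins with Mrpl or Mrps followed by a number. There were 78 of them, among 51826 gene identifiers in the forelimb table and 55401 in the culture tables, and all 78 were present in both sets. RNA sequencing covered 12 libraries, with 2 in each of 6 groups. One set was whole E12.5 mouse forelimb, labelled Impdh2 Wt (WT here) or Impdh2 Prx-cKO, a conditional knockout named for Prx, a driver of limb mesenchyme, so that forelimb cells outside that lineage are not expected to carry the deletion. The other set was bone marrow cultures, labelled Impdh2 Wt or Impdh2 LysM-cKO, a conditional knockout named for the myeloid driver LysM. Marrow cells were grown for 3 days in medium with L929 supernatant equivalent to 20 ng/ml M-CSF and then reseeded, and RANKL, the cytokine that drives osteoclast formation, is listed at 40 ng/ml. Culture groups carry the names R0D3 and R40D3, which the labels do not spell out, and all 8 cultures carry the same treatment label, so these names are used only as names. Neither the pooling of animals nor the sex of the samples is stated, and nothing in the labels says that the 2 libraries of a group came from separate animals, so p-values measure only the spread between these libraries.

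Mitochondrial ribosomes translate the few mRNAs encoded by the mitochondrial genome, all of which specify subunits of the oxidative phosphorylation complexes. Their protein components are encoded in the nucleus, made in the cytosol and imported, and are divided between a large and a small subunit. Some descend from bacterial ribosomal proteins, and others are specific to mitochondria. Osteoclasts, the bone-resorbing cells that form from myeloid precursors, are known to be rich in mitochondria. The Impdh2 enzyme acts in the making of guanine nucleotides, and GTP is used by the elongation factors of both kinds of ribosome.

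Across the 2 sets, 28892215 to 69466572 counts were available per forelimb library and 16009146 to 19221865 per culture library. The limb mesenchyme markers summed to 719 to 1022 CPM (a gene's counts relative to the scaled library total) in the forelimb, and the osteoclast markers to 249 to 383 CPM at R0D3 and 12889 to 38249 CPM at R40D3. Osteoclast markers were thus low in R0D3 libraries, although their treatment label names osteoclast differentiation, while macrophage markers summed to 7123 to 8576 CPM in all 8 cultures. Impdh2 itself was at 260.3 and 272 CPM in WT forelimb and at 169.6 and 199 CPM in Prx-cKO, a log2 change of -0.53 (SE 0.16) that did not pass (adjusted p = 0.443 by edgeR). At R40D3 Impdh2 was at 25.7 and 27.7 CPM in WT and 7.71 and 8.37 CPM in LysM-cKO, and it fell by 1.73 on the log2 scale (SE 0.15, adjusted p = 0.0386 by edgeR). At R0D3 Impdh2 was at 22.3 and 28.2 CPM in WT and 7.35 and 7.03 CPM in LysM-cKO, and it fell by 1.81 on the log2 scale (SE 0.16, adjusted p = 0.0324 by edgeR).

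Promoter sequence is shown for a few members because this gene class is known for short GC-rich promoters bound by NRF1 and ETS-family factors. RefSeq promoter windows of GRCm38.p6, the 250 bases before the start, were found for 69 of the 78 members. Each was searched on both strands for 4 sets of letters, namely the NRF1 core GCATGCG, the ETS-type CCGGAAG, the YY1 core AAGATGG and the E-box CACGTG. No set of letters contains another, and overlapping matches on the 2 strands were counted once. The first 3 windows below belong to the members with the smallest p among those that were higher at R40D3 than at R0D3 in WT and hold CCGGAAG. The fourth belongs to Mrps12, whose level was nearly the same at R0D3 and R40D3. Capitals mark the matched letters, on either strand, and each sequence is written 5′ to 3′ on the gene's strand.
Mrpl17: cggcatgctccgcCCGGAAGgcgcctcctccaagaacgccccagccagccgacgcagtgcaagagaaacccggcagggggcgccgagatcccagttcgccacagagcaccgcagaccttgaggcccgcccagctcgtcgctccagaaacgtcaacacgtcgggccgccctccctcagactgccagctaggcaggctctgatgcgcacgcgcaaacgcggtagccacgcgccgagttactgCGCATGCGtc
Mrpl34: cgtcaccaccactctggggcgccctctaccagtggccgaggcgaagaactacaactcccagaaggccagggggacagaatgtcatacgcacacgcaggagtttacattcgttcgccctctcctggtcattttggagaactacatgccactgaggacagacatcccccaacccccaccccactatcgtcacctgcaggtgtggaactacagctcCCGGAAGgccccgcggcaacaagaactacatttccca
Mrpl3: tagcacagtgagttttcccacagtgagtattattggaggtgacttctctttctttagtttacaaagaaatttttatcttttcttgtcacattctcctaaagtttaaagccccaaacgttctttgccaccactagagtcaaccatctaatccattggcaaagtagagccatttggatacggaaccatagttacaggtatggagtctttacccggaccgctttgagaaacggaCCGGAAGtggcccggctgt
Mrps12: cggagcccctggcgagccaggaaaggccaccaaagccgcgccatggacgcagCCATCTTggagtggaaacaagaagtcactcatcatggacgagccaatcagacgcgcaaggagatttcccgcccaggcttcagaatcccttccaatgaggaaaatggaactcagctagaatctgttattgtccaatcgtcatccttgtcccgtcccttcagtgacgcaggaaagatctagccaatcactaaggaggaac

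These windows lie at chr7:105811088-105811337 (minus strand) for Mrpl17, chr8:71464676-71464925 (plus strand) for Mrpl34, chr9:105053018-105053267 (plus strand) for Mrpl3 and chr7:28741822-28742071 (minus strand) for Mrps12. In Mrpl17 the capitals near the start are an NRF1 core read on both strands at once. Median GC was 58.4% over the 69 member windows and 56.0% over all 16522 windows. The windows shown were at 68.4% (Mrpl17), 58.0% (Mrpl34), 42.8% (Mrpl3) and 53.6% (Mrps12). CCGGAAG was in 17 of 69 member windows (24.6%) and in 9.45% of the windows of all 16522 protein-coding genes with an entry. The NRF1 core was in 8 member windows (11.6%) against 3.95% of all, and the YY1 core in 6 (8.70%) against 4.10% of all. The E-box, at 7.25% of member windows against 6.80% of all, was about as frequent in both. Among the 27 windows of members that were higher at R40D3 in WT, 9 held CCGGAAG (33.3%), and among the other 42 windows 8 did (19.0%). The NRF1 core was at 11.1% and 11.9% in these same sets, and none of these differences in motif share was tested. A total of 39 member windows held none of the 4 sets of letters, so a match was not shared by most members.

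Many members also lay head to head with another gene. In GENCODE M21, 33 of 78 members (42.3%) had the start of a protein-coding gene on the opposite strand within 1000 bases of their own start, against 10.8% of all 22028 protein-coding genes. The starts of Mrpl46 and its neighbour Mrps11, both members, were 412 bases apart. Mrpl36 lay 29 bases from Ndufs6, a subunit gene of respiratory complex I, and Mrps12 lay 172 bases from Sars2, the mitochondrial seryl-tRNA synthetase.

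Summed over the members, mitochondrial ribosomal protein mRNA was at 4390 and 3785 CPM in WT forelimb and 4942 and 5488 CPM in Prx-cKO forelimb. At R0D3 the sum was 1714 and 1848 CPM in WT and 1571 and 1848 CPM in LysM-cKO. At R40D3 it was 2353 and 2675 CPM in WT and 1994 and 2450 CPM in LysM-cKO. Both Prx-cKO libraries were above both WT forelimb libraries, all 4 R40D3 libraries were above all 4 R0D3 libraries, and the genotypes overlapped within each culture condition. Between same-numbered libraries at R40D3, LysM-cKO was below WT in both pairs. The forelimb and culture tables were counted separately, so levels are not compared between them.

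**Figure D1:**
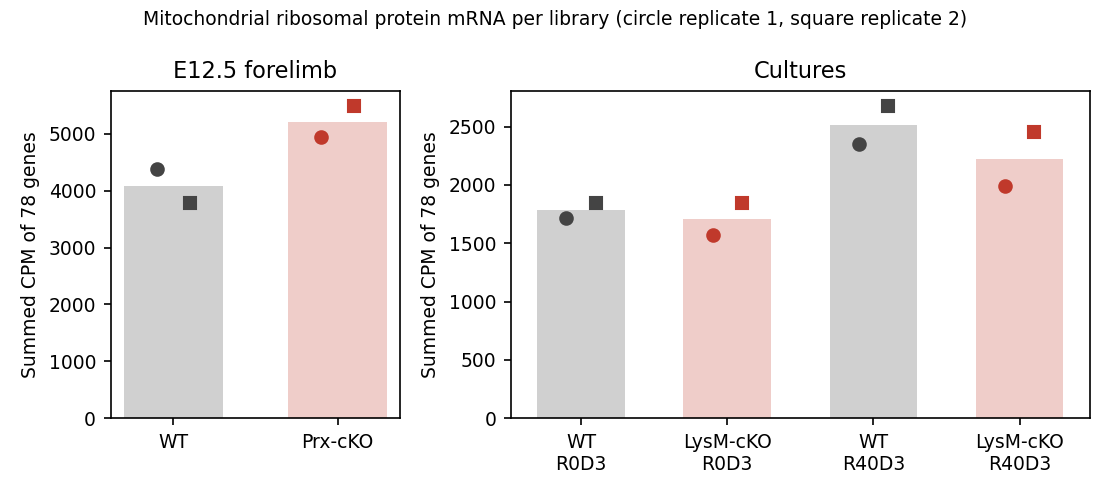
Summed level of the 78 genes in CPM (vertical axes) by group, with 1 point per library and bars at the group mean of 2 libraries. The 4 R40D3 libraries sit between 1994 and 2675 CPM, all above the R0D3 libraries at 1571 to 1848 CPM.

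Levels per kilobase of exon differed widely between members. In WT forelimb the highest was Mrpl12, the L7/L12 stalk protein of the large subunit, at 117 ± 5.52 CPM per kilobase (SD, n = 2). Mrpl34 followed at 98.0 ± 12.7 and Mrpl54 at 94.4 ± 13.1 CPM per kilobase, which do not differ beyond their spread. The lowest were Mrpl48 at 3.37 ± 0.444, Mrpl32 at 4.39 ± 0.00332 and Mrpl15 at 5.52 ± 0.0657 CPM per kilobase. In WT R0D3 the highest was Mrps21, a small-subunit protein, at 65.0 ± 2.37 CPM per kilobase, followed by Mrpl34 at 33.7 ± 1.27 and Mrpl27 at 27.3 ± 2.94. The lowest of the tested members there were Mrpl23 at 0.537 ± 0.0509, Mrps35 at 1.79 ± 0.0282 and Mrps10 at 1.89 ± 0.307, the last 2 within their spread of each other. Exon length was the union of all annotated transcripts, and Mrps35 and Mrps10 have unions of 8631 and 8079 bases. A per-kilobase level thus depends on the annotated length, and the use of single exons was not measured.

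In the forelimb, 74 of 78 mitochondrial ribosomal protein mRNAs had a log2 fold change above 0 in Prx-cKO, and edgeR called no single gene. The class as such was not tested. The comparison asks how levels differ when Impdh2 is deleted with the Prx-driven Cre. All 78 members passed the filter on low counts. Of all 19987 genes tested 47.2% had a log2 fold change above 0, and the members' median was 0.36 against -0.03 over all genes. Both Prx-cKO libraries were above both WT libraries for 56 members, against 22.2% of all genes, and below for 2 members, against 21% of all genes. The edgeR quasi-likelihood test with Benjamini-Hochberg adjustment called 0 members and 0 genes in all (0%). In simulated forelimb counts this test recovered 43 of 200 genes changed by 1 on the log2 scale. The lack of calls is therefore not evidence of no change. At an unadjusted p under 0.05 there were 20 members, all higher, against 5.87% of all genes higher and 4.61% lower, and DESeq2 called 2 members, Mrps24 and Mrps18b, among 1.95% of all genes.

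The members with the smallest p were spread over both subunits. Mrps24, a small-subunit protein of bacterial type, was at 51.9 and 43.6 CPM in WT and 76.0 and 95.2 CPM in Prx-cKO, a log2 change of 0.84 (SE 0.19, adjusted p = 0.4 by edgeR). Mrps18b, 1 of the 3 mammalian relatives of bacterial S18, was at 24.2 and 20.1 CPM in WT and 37.4 and 38.2 CPM in Prx-cKO, a log2 change of 0.77 (SE 0.18, adjusted p = 0.408 by edgeR). Mrpl55, a large-subunit protein, was at 27.2 and 25.5 CPM in WT and 40.0 and 50.3 CPM in Prx-cKO, a log2 change of 0.78 (SE 0.19, adjusted p = 0.414 by edgeR). In each of these 3 genes the knockout libraries lay above the WT libraries without overlap. For Mrps18b the overlaps with other annotated genes, summed over partner genes, exceed 20% of its exon bases, so its counts are uncertain.

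Members chosen for their roles mostly lay in the same direction. Mrpl12 was at 186 and 174 CPM in WT and 225 and 314 CPM in Prx-cKO, a log2 change of 0.58 (SE 0.20). Mrps7, a bacterial-type protein of the small-subunit head, was at 80.1 and 73.2 CPM in WT and 99.3 and 109 CPM in Prx-cKO, a log2 change of 0.45 (SE 0.15). Mrps30, which despite its name belongs to the large subunit, was at 56.3 and 67.9 CPM in WT and 79.9 and 94.8 CPM in Prx-cKO, a log2 change of 0.49 (SE 0.18). These 3 genes showed no overlap between genotypes. Mrps18a, also a large-subunit protein, had a log2 change of 0.42 (SE 0.16), and Mrps2, a bacterial-type small-subunit protein, of 0.31 (SE 0.15), both without overlap. Mrpl58, a peptidyl-tRNA hydrolase built into the large subunit, had a log2 change of 0.31 (SE 0.19), and Mrpl11, near the stalk base, of 0.41 (SE 0.21), again without overlap. Mrps12, a protein of the decoding site, was at 47.5 and 28.1 CPM in WT and 47.2 and 60.2 CPM in Prx-cKO, so its groups overlapped. Overlap was also seen for Mrps18c (0.32, SE 0.24) and Mrpl41 (0.16, SE 0.19), given as log2 fold changes. Mrps36, now regarded as a component of the oxoglutarate dehydrogenase complex, was at 18.4 and 16.2 CPM in WT and 17.2 and 18.9 CPM in Prx-cKO, a log2 change of 0.06 (SE 0.20). None of the genes in this paragraph passed (edgeR adjusted p from 0.460 to 0.928).

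Only 4 members had a log2 fold change below 0. Mrpl32 had the lowest, at -0.14 (SE 0.18), with 21.8 and 21.9 CPM in WT and 19.4 and 20.3 CPM in Prx-cKO, and Mrpl50 followed at -0.10 (SE 0.18). The other two, Mrpl39 and Mrps25, were named after their values were seen, as was Mrpl39 as the second member, beside Mrpl32, with both Prx-cKO libraries below both WT libraries. By subunit, the median log2 fold change was 0.39 over 51 large-subunit members and 0.33 over 26 small-subunit members. It was 0.40 over 29 bacterial-type and 0.35 over 21 mitochondria-specific large-subunit members, and 0.33 and 0.30 over 16 bacterial-type and 10 mitochondria-specific small-subunit members. The class medians thus lay between 0.30 and 0.40, and differences between classes were not tested.

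**Figure D2:**
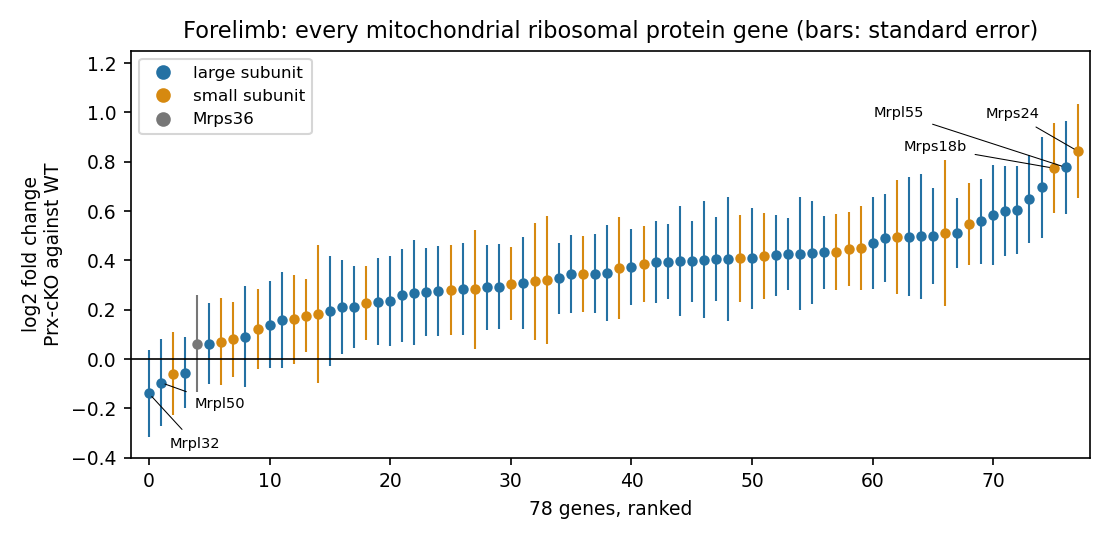
Log2 fold change of Prx-cKO against WT forelimb (vertical axis) for the 78 genes in rank order (horizontal axis), with bars of 1 standard error from the edgeR fit and colours for the subunit. The points run from -0.14 (Mrpl32) to 0.84 (Mrps24), with 74 of 78 above 0.

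Related gene groups differed in direction in the forelimb. The cytosolic ribosomal protein genes had 75 of 78 members above 0 and a median of 0.35 (log2). The 13 mRNAs of the mitochondrial genome had a median of -0.29, and all 13 were below 0. Their sums overlapped between genotypes, at 35190 and 26390 CPM in WT and 29566 and 24195 CPM in Prx-cKO. Of 16 mitochondrial translation factors 11 were above 0, with a median of 0.13, and of 26 assembly and rRNA modification factors 21 were above 0, with a median of 0.21. Nsun4, an rRNA methyltransferase of the mitochondrial ribosome, was at 7.30 and 8.05 CPM in WT and 18.2 and 17.6 CPM in Prx-cKO, a log2 change of 1.22 (SE 0.21, adjusted p = 0.332 by edgeR). Tufm, the mitochondrial elongation factor Tu, was at 77.4 and 76.3 CPM in WT and 106 and 119 CPM in Prx-cKO, a log2 change of 0.55 (SE 0.15, adjusted p = 0.429 by edgeR). No gene of these groups passed.

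No cell type marker passed (edgeR) between the forelimb genotypes, and the marker levels were as follows. The 6 skeletal muscle markers were all above 0, at a log2 median of 1.05, and summed to 313 and 294 CPM in WT and 877 and 410 CPM in Prx-cKO. Limb mesenchyme markers had a median of -0.26, with 4 of 6 below 0, and summed to 920 and 1022 CPM in WT and 719 and 777 CPM in Prx-cKO, with none at 0. Endothelial markers were above 0 in 5 of 5 (median 0.34) and summed to 104 and 112 CPM in WT and 138 and 142 CPM in Prx-cKO. Macrophage markers were above 0 in 4 of 5 (median 0.70), yet their sum was 82.1 and 85.2 CPM in WT and 78.2 and 65.8 CPM in Prx-cKO. Fibroblast markers were below 0 in 4 of 6 and summed to 1800.3 and 1785 CPM in WT and 1625 and 1536 CPM in Prx-cKO. Of the proliferation markers 6 of 8 were above 0 (median 0.26). Their part in the higher mitochondrial ribosomal protein levels was not tested, and in whole tissue fewer cells of a type and less RNA per cell cannot be told apart. Between same-numbered libraries the member median was 0.20 for replicate 1 and 0.51 for replicate 2. The numbers were not taken to pair the forelimb samples, so this matching is arbitrary, and the size of the median depended on the libraries compared.

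In WT cultures, 31 mitochondrial ribosomal protein mRNAs rose from R0D3 to R40D3. Of 77 members that passed the filter on low counts, 31 were called higher and 0 lower (edgeR adjusted p under 0.05), against 11.4% of all 14030 genes called higher, 5.51% called lower and 16.9% in either direction. The log2 fold change was above 0 in 74 members, with a median of 0.49 against 0.01 over all genes. Both R40D3 libraries were above both R0D3 libraries for 64 members, against 32.9% of all genes, and below for 1, Mrpl19, against 29.2% of all genes. With the replicate number as a block 50 members were called, against 28.3% of all genes, and by DESeq2 32, against 16.9%. The call count depended on single libraries, with 1 member called without WT R40D3 replicate 2, 3 without WT R0D3 replicate 1, 5 without WT R0D3 replicate 2 and 22 without WT R40D3 replicate 1, while the median stayed between 0.37 and 0.50. Fewer libraries also leave fewer degrees of freedom in these fits.

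Mrps35, a mitochondria-specific small-subunit protein, had the smallest p. It was at 15.3 and 15.6 CPM in WT R0D3 and 39.1 and 56.8 CPM in WT R40D3, and it rose by 1.63 on the log2 scale (SE 0.22, adjusted p = 0.00345 by edgeR). Its call held under each alternative run in WT, with adjusted p from 2.88e-09 to 0.0408. Mrps35 (ENSMUSG00000040112) lies at chr6:147042764-147073991 (GRCm38, plus strand) and shares no exon bases with another gene.

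Large-subunit members were the most numerous among the calls. Mrpl41, a mitochondria-specific protein, was at 16.7 and 14.1 CPM at R0D3 and 30.6 and 34.5 CPM at R40D3, and rose by 1.08 on the log2 scale (SE 0.17, adjusted p = 0.00580 by edgeR). Mrpl12 was at 32.9 CPM in both R0D3 libraries and at 63.2 and 77.6 CPM at R40D3, and rose by 1.10 (SE 0.19, adjusted p = 0.00798 by edgeR). Mrpl34, whose promoter window is shown above, was at 19.9 and 21 CPM at R0D3 and 35.2 and 40.0 CPM at R40D3, and rose by 0.88 (SE 0.15, adjusted p = 0.00744 by edgeR). In all 3 genes the lowest R40D3 library was well above the highest R0D3 library. Mrpl17, at 25.3 and 28.7 CPM and then 45.2 and 49.6 CPM, rose by 0.81 (SE 0.13, adjusted p = 0.00709 by edgeR). Mrpl36, the bacterial-type L36 protein, rose by 0.78 (SE 0.14), and Mrpl16, a bacterial-type protein near the tRNA sites, by 0.68 (SE 0.12). The large-subunit proteins Mrps18a and Mrps30 were also called, at 0.76 (SE 0.20) and 0.50 (SE 0.11).

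Small-subunit members ranged from the largest rises to none. Mrps5, a bacterial-type protein, was at 21.7 and 19.1 CPM at R0D3 and 35.5 and 37.8 CPM at R40D3, and rose by 0.84 (SE 0.13, adjusted p = 0.00615 by edgeR). Mrps28 was at 5.12 and 9.44 CPM at R0D3 and 15.6 and 21.8 CPM at R40D3, and rose by 1.36 (SE 0.33, adjusted p = 0.0284 by edgeR). Mrps18b rose by 0.97 (SE 0.21) and Mrps2 by 0.77 (SE 0.18). By contrast, Mrps12 was at 15.1 and 14.0 CPM at R0D3 and 14.7 and 14.3 CPM at R40D3, a log2 change of -0.0020 (SE 0.12, adjusted p = 0.995 by edgeR) whose sign changed with library size alone. Mrps7 was at 34.3 and 35.3 CPM and then 39.1 and 42.7 CPM, a log2 change of 0.23 (SE 0.12) that did not pass. Mrps18c was also not called (0.15, SE 0.12), so the 3 relatives of bacterial S18 differed in their calls, and these differences between genes were not tested.

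The other members chosen for their roles and those with the lowest folds were as follows. Mrps36 was at 9.20 and 11.2 CPM at R0D3 and 17.4 and 24.2 CPM at R40D3, and rose by 1.02 on the log2 scale (SE 0.21, adjusted p = 0.0158 by edgeR). Mrpl58 (0.42, SE 0.17) and Mrpl11 (0.34, SE 0.19) did not pass, although neither overlapped between conditions. The lowest log2 fold changes were -0.10 (SE 0.12) for Mrpl19 and -0.07 (SE 0.17) for Mrpl33. For Mrpl19 the exon overlaps, summed over partner genes, exceed 20% of its exon bases.

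Calls were found in every structural class. They numbered 21 of 50 large-subunit members (median log2 fold change 0.43) and 9 of 26 small-subunit members (median 0.51). Among large-subunit members 11 of 29 of bacterial type and 9 of 20 mitochondria-specific ones were called. Mrpl55, also called, was a large-subunit member in neither of these lists, and Mrps36 was counted in no subunit. Among small-subunit members the counts were 5 of 16 of bacterial type (median 0.31) and 4 of 10 mitochondria-specific ones (median 0.60). Of the 45 members that share no exon bases with another gene 18 were called, with a median of 0.49, close to that of the whole set.

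Some other genes of the mitochondrial translation machinery also rose in WT cultures, whereas no cytosolic ribosomal protein gene passed, and these counts stand beside the 11.4% of all genes called higher. Of 15 translation factors tested 6 were called higher and 0 lower. Gfm1, a mitochondrial elongation factor G, was at 35.3 and 34.6 CPM at R0D3 and 81.0 and 88.4 CPM at R40D3, and rose by 1.28 on the log2 scale (SE 0.17, adjusted p = 0.00340 by edgeR). Lrpprc, which stabilises mitochondrial mRNAs, rose by 0.76 (SE 0.11), and Tufm by 1.01 (SE 0.16). Of 26 assembly and modification factors 6 were called higher, among them Noa1, a GTPase of small-subunit assembly (1.23, SE 0.19), Mettl15, an rRNA methyltransferase (1.74, SE 0.31), and Mrm3, another rRNA methyltransferase (1.34, SE 0.28). Among 5 mitochondrial ribosome proteins with other symbols, Ptcd3 (0.54, SE 0.12) and Dap3 (0.83, SE 0.21) were called. Of the 13 mitochondrial mRNAs 3 were called higher, named after their values were seen as mt-Nd1, mt-Nd2 and mt-Cytb, and the median of the 13 was 0.61. Of 78 cytosolic ribosomal protein genes the edgeR test called 0, with 1 at an unadjusted p under 0.05 and a median of 0.03.

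**Figure D3:**
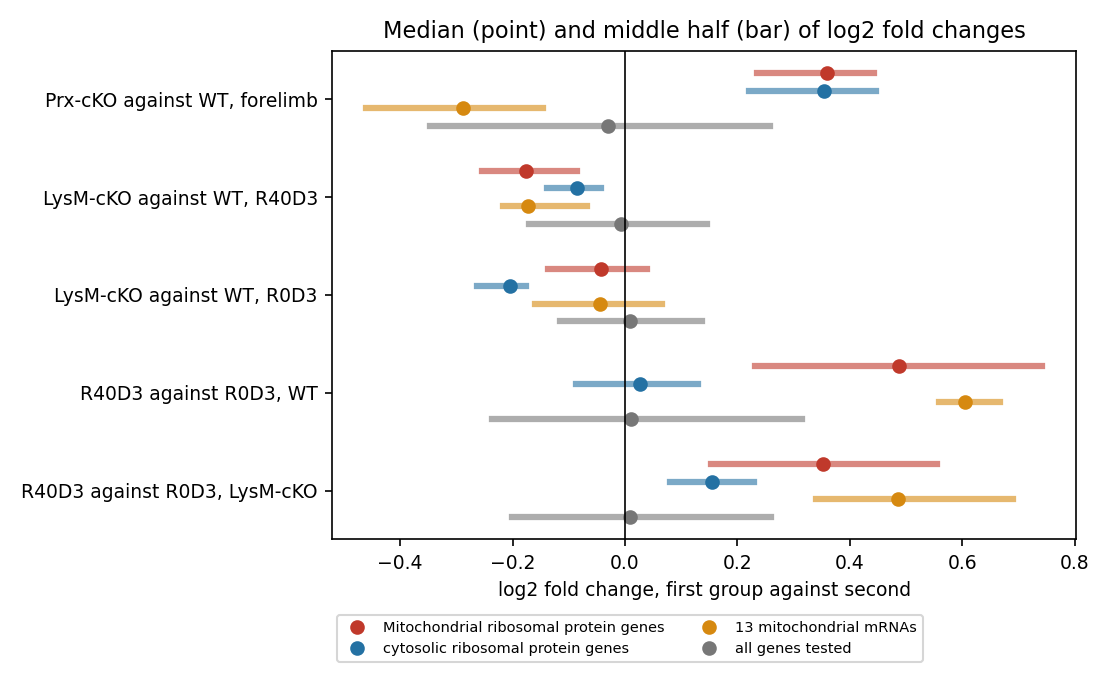
Median (points) and interquartile range (bars) of log2 fold changes (horizontal axis) for the mitochondrial and cytosolic ribosomal protein genes, the 13 mitochondrial mRNAs and all genes tested, in 5 comparisons (vertical axis). The 2 ribosomal classes have like medians in the forelimb (0.36 and 0.35) and unlike ones between R40D3 and R0D3 in WT (0.49 and 0.03).

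Of the marker lists, only that of osteoclasts was called as a whole in the WT culture comparison. All 9 osteoclast markers were called higher in WT, with summed levels of 272 to 383 CPM at R0D3 and 25858 to 38249 CPM at R40D3. The 8 proliferation markers were all below 0, at a log2 median of -0.61, and fibroblast markers summed to 1149 to 1331 CPM at R0D3 and 1461 to 1542 CPM at R40D3. No proliferation or fibroblast marker passed (edgeR). Of 6 macrophage markers 5 were below 0 and 1 was called lower, with a median of -0.26. Erythroid markers, at 4 to 8 of 8 genes at 0 in each culture library, were near absent. The part of these markers in the rise of the mitochondrial ribosomal protein genes was not tested.

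In LysM-cKO cultures, 13 members rose from R0D3 to R40D3. Of 77 members, 13 were called higher and 0 lower, against 6.99% of all genes called higher, 3.15% lower and 10.1% in either direction. The log2 fold change was above 0 in 72, with a median of 0.35 against 0.01 over all genes. For 50 members both R40D3 libraries were above both R0D3 libraries, against 27.3% of all genes, and for 0 members below, against 22.5% of all genes. With the replicate number as a block 40 were called, against 21.3% of all genes, and by DESeq2 16, against 11.7%. With 1 library left out the count was 0 (without R0D3 replicate 1, and also without R40D3 replicate 2), 1 (without R0D3 replicate 2) or 17 (without R40D3 replicate 1). The median ranged from 0.19 (without R40D3 replicate 2) to 0.50 (without R40D3 replicate 1), and 1 member was called when only the 4 compared libraries were fitted.

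Mrps35 again had the smallest p, at 14.5 and 15.2 CPM at R0D3 and 31.1 and 44.1 CPM at R40D3, and it rose by 1.34 on the log2 scale (SE 0.22, adjusted p = 0.0117 by edgeR). Mrpl34 was at 17.2 and 20.0 CPM and then 28.2 and 35.6 CPM, and rose by 0.78 (SE 0.15, adjusted p = 0.0195 by edgeR). Mrpl12 was at 25.8 and 30.7 CPM and then 43.7 and 62.9 CPM, and rose by 0.91 (SE 0.19, adjusted p = 0.0247 by edgeR). No R40D3 library overlapped an R0D3 library for these 3 genes. Mrpl52, a mitochondria-specific large-subunit protein, rose by 0.97 (SE 0.22) and Mrpl38 by 0.69 (SE 0.15). Mrpl37, another mitochondria-specific protein, rose by 0.63 (SE 0.12), Mrpl36 by 0.68 (SE 0.14) and Mrps22, a small-subunit protein, by 0.65 (SE 0.13). Mrps6 rose by 1.05 (SE 0.26), and its overlaps with other genes including Slc5a3, summed over partner genes, exceed 20% of its exon bases.

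Several members chosen for their roles lay near the threshold in LysM-cKO. Mrps36 was at 8.27 and 10.2 CPM and then 15.1 and 17.8 CPM, a log2 change of 0.83 (SE 0.21, adjusted p = 0.0516 by edgeR). Mrpl41 was at 17.6 and 15.0 CPM and then 22.0 and 28.5 CPM, a log2 change of 0.63 (SE 0.17, adjusted p = 0.0593 by edgeR). Mrps18b had a log2 change of 0.76 (SE 0.21, adjusted p = 0.0689 by edgeR). All 3 were called with the replicate block, with adjusted p of 0.00218 for Mrps36, 0.0254 for Mrpl41 and 0.00387 for Mrps18b. At the other end, Mrps12 (-0.03, SE 0.12), Mrpl14 (-0.04, SE 0.18) and Mrps11 (-0.10, SE 0.15) had log2 fold changes whose signs changed when 1 library was left out. Mrps2 (0.43, SE 0.18), Mrps18a (0.42, SE 0.20), Mrpl58 (0.32, SE 0.18), Mrpl11 (0.30, SE 0.18), Mrps30 (0.21, SE 0.11), Mrps7 (0.18, SE 0.12) and Mrps18c (0.10, SE 0.12) did not pass either.

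**Figure D4:**
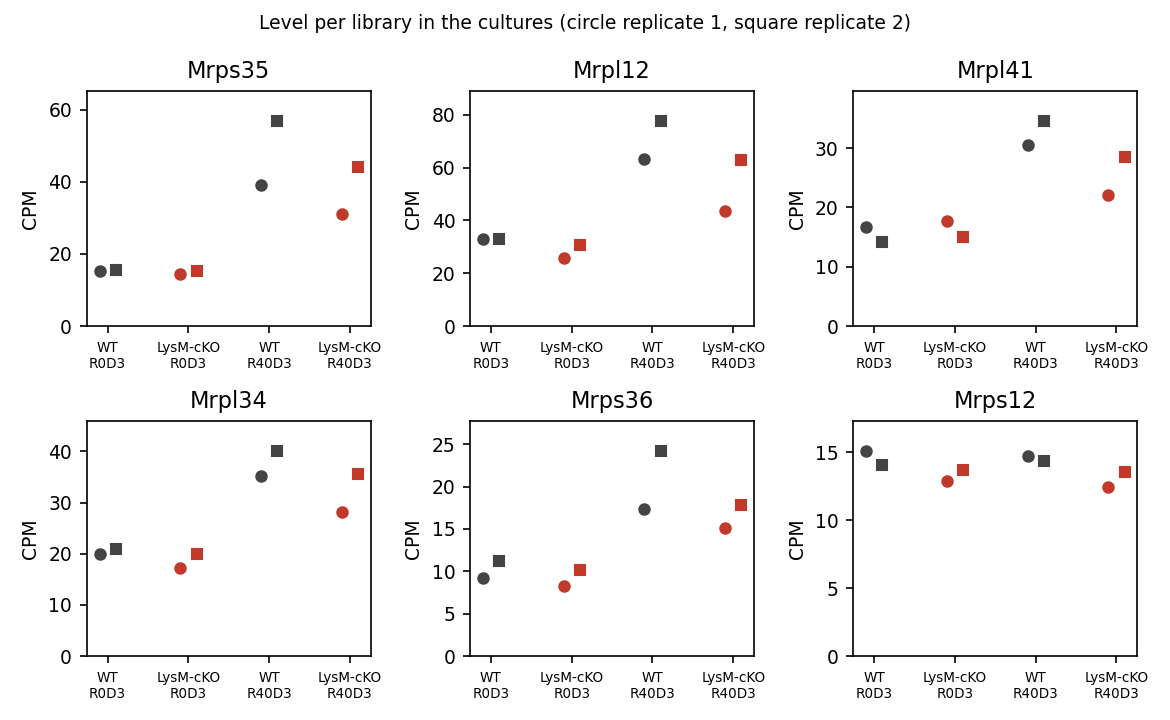
Level in CPM (vertical axes) of 6 genes in the 8 culture libraries, by group. Mrps35, Mrpl12, Mrpl41, Mrpl34 and Mrps36 are higher in every R40D3 library than in any R0D3 library, and Mrps12 stays between 12.4 and 15.1 CPM throughout.

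All 13 members called in LysM-cKO were also called in WT, which is 100% of the LysM-cKO calls and 41.9% of the 31 WT calls. With the replicate block, 38 members were called in both, out of 50 in WT and 40 in LysM-cKO. The like shares over all genes were not counted, so these overlaps are not read as particular to the members. The 2 comparisons share no library, but they come from 1 fit with a shared spread. Same-numbered libraries also deviated together across genotypes (r = 0.434 at R0D3 and 0.534 at R40D3). Beside the 6.99% of all genes called higher in LysM-cKO, the related lists had higher calls for 4 of 15 translation factors, 2 of 26 assembly factors, 0 of the 13 mitochondrial mRNAs (4 at an unadjusted p under 0.05, median 0.49), and 1 of 78 cytosolic ribosomal protein genes (median 0.15), which is Rps23 and was named after its value was seen. All 9 osteoclast markers were called higher here too, and all 8 proliferation markers were below 0 (median -0.81). Their part was not tested.

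**Figure D5:**
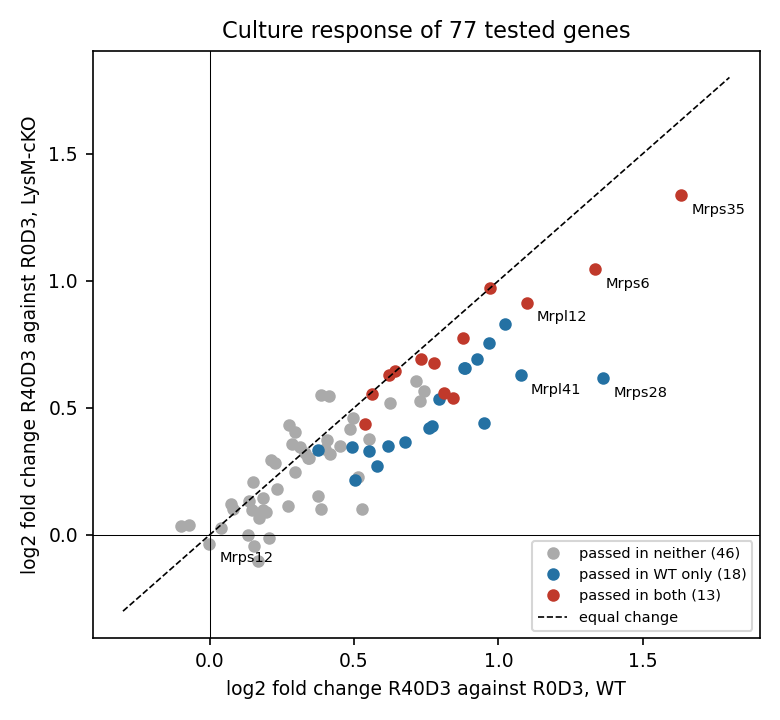
Log2 fold change of R40D3 against R0D3 in LysM-cKO (vertical axis) against that in WT (horizontal axis) for the 77 tested genes, coloured by whether the edgeR test called them. The 13 genes called in both lie at the upper right with Mrps35 (1.63 in WT, 1.34 in LysM-cKO) farthest out, and 18 were called in WT alone.

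Whether the rise differed between genotypes was tested directly with the interaction of genotype and culture. The edgeR test called 0 members and 0 genes (0%), with 0 members at an unadjusted p under 0.05, against 1.76% of all genes, and 0 members called by DESeq2. The median interaction was -0.10 against -0.02 over all genes, which is a smaller rise in LysM-cKO, with 61 of 77 members below 0 against 53.0% of all genes. This median changed sign without LysM-cKO R0D3 replicate 2 (0.019) or LysM-cKO R40D3 replicate 1 (0.036). Mrpl41 (-0.45, SE 0.24), Mrps30 (-0.29, SE 0.16) and Mrpl16 (-0.31, SE 0.17) had the smallest p, none of which passed (adjusted p = 1 by edgeR). The lowest values were -0.74 (SE 0.46) for Mrps28 and -0.51 (SE 0.29) for Mrpl55, and the highest 0.16 for both Mrpl9 (SE 0.24) and Mrpl23 (SE 0.40).

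Between genotypes at R40D3, members tended to be at lower levels in LysM-cKO than in WT, and none passed. The edgeR test called 0 of 77 members, against 0.0143% of all genes, DESeq2 called 0, against 0.164%, and the fit with the replicate block called 0, against 0.214%. The log2 fold change was below 0 in 72 members, against 51.5% of all genes, with a median of -0.18 against -0.01. Related lists also lay mostly below 0, and no gene in them was called. Below 0 were 12 of 13 mitochondrial mRNAs (median -0.17) and 71 of 78 cytosolic ribosomal protein genes (median -0.09). So were 5 of 5 mitochondrial ribosome proteins with other symbols (median -0.11). The counts were 10 of 15 for translation factors (median -0.07) and 19 of 26 for assembly and modification factors (median -0.08). For 30 members both LysM-cKO libraries were below both WT libraries, against 18.9% of all genes, and for 1, Mrpl19, above, against 19.7% of all genes. Only 2 members had an unadjusted p under 0.05, both lower, against 3.47% of all genes lower. Between same-numbered libraries 56 members were lower in LysM-cKO in both pairs, with pair medians of -0.25 and -0.14. The share of all genes lower in both pairs was not counted, so the count of 56 is not read as particular to the members. When 1 library was left out, the median was -0.34 (LysM-cKO replicate 2), -0.09 (WT replicate 2) or -0.035 (LysM-cKO replicate 1), so single libraries set its size.

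Mrps30 had the smallest p, at 21.9 and 21.5 CPM in WT and 17.3 and 18.3 CPM in LysM-cKO, a log2 change of -0.29 (SE 0.11, adjusted p = 0.647 by edgeR). Mrpl50, a mitochondria-specific large-subunit protein, was at 31.6 and 32.3 CPM in WT and 25.9 and 27.2 CPM in LysM-cKO, a log2 change of -0.27 (SE 0.10, adjusted p = 0.647 by edgeR). Mrpl12 was at 63.2 and 77.6 CPM in WT and 43.7 and 62.9 CPM in LysM-cKO, a log2 change of -0.40 (SE 0.18, adjusted p = 0.647 by edgeR). The genotypes did not overlap for these 3 genes, although the distance between replicates of Mrpl12 was larger than the gap between genotypes. Mrpl20 (-0.31, SE 0.13), Mrpl41 (-0.37, SE 0.16), Mrps6 (-0.48, SE 0.24), Mrps18a (-0.36, SE 0.20), Mrps18b (-0.34, SE 0.20), Mrpl58 (-0.24, SE 0.17), Mrps2 (-0.21, SE 0.17), Mrps7 (-0.18, SE 0.12) and Mrps12 (-0.17, SE 0.12) were below WT without overlap as well. Mrps28 (-0.46, SE 0.31), Mrps36 (-0.34, SE 0.20), Mrps18c (-0.05, SE 0.12) and Mrpl11 (-0.02, SE 0.18) overlapped. The 5 members above 0 were Mrpl23 (0.30, SE 0.27) and Mrpl33 (0.16, SE 0.17), and Mrpl19, Mrpl39 and Mrpl45, which were named after their values were seen.

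No marker of the osteoclast, macrophage, proliferation or fibroblast lists passed (edgeR) between these R40D3 libraries. Osteoclast markers summed to 25858 and 38249 CPM in WT and 12889 and 24431 CPM in LysM-cKO, with 9 of 9 log2 fold changes below 0 and a median of -0.65. Macrophage markers had a median of 0.31, with 4 of 6 above 0 and 3 of 6 higher at an unadjusted p under 0.05. Proliferation markers had a median of 0.80, with 8 of 8 above 0. Fibroblast markers summed to 1542 and 1461 CPM in WT and 1392 and 407 CPM in LysM-cKO, with LysM-cKO replicate 2 far below the other 3 libraries and 2 of 6 markers at 0 there. Their part in the lower mitochondrial ribosomal protein levels was not tested.

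At R0D3 no member passed between genotypes. The edgeR test and DESeq2 each called 0 of 77 members, against 0.0143% of all genes by edgeR and 0.0499% by DESeq2, the replicate block called 0, against 0.0214%, and 0 members had an unadjusted p under 0.05, against 4.41% of all genes. The median log2 fold change was -0.04 against 0.01 over all genes, with 53 members below 0 against 48.1% of all genes, and it changed sign without LysM-cKO R0D3 replicate 1 (0.0052) or WT R0D3 replicate 2 (0.014). Both LysM-cKO libraries were below both WT libraries for 13 members, against 14.8% of all genes, and above for 2, against 17.5% of all genes. Mrpl50 had the smallest p, at 26.0 and 23.3 CPM in WT and 20.2 and 21.9 CPM in LysM-cKO, a log2 change of -0.23 (SE 0.11, adjusted p = 0.997 by edgeR). Mrpl48 (-0.24, SE 0.14) and Mrps15 (-0.19, SE 0.11) followed, while Mrpl52 had the lowest fold at -0.37 (SE 0.22) and Mrps28 the highest at 0.28 (SE 0.35). The cytosolic ribosomal protein genes had a median of -0.20 there, with 78 of 78 below 0, and all 8 proliferation markers were above 0 (median 1.02).

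Mrpl53 was the 1 member that missed the filter on low counts, and only in the cultures. It was at 0.123 to 0.640 CPM in the 8 culture libraries and at 6.89 and 7.35 CPM in WT and 10.0 and 8.90 CPM in Prx-cKO forelimb. It has 790 exon bases, and its overlaps with Ccdc142os and Gm42688, summed over these partner genes, come to 710 bases, so its level cannot be separated from theirs. In all, 33 members share exon bases with another gene, 8 of them on the same strand. For 11 the overlaps, summed over partner genes, exceed 20% of the exon bases.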

How the data were processed

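The values are raw counts of reads for each Ensembl gene, deposited by the authors as 1 forelimb table and 1 culture table for each replicate number. TRIzol RNA and an mRNA kit were used, per the labels' protocols. The submitters' processing notes name FastQC 0.11.2, Trimmomatic 0.36, HISAT2 2.1.0, DESeq2 1.12.4 and GRCm38, without roles. The counting tool, annotation and use of strand are not given in the sources used here.

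Identifiers were matched to GENCODE M21 (99.6% and 99.5% found). Genes were kept by filterByExpr, scaled by TMM and tested with the edgeR 4.0.16 quasi-likelihood test in R 4.3.3 (two-sided, adjusted p under 0.05). The forelimb (19987 genes) and the 8 cultures (14030 genes) were fitted separately. CPM use TMM-scaled totals. The fit was tested on simulated counts with 200 genes changed by 1 on the log2 scale. It recovered 43 of them, with 2 false calls, for the forelimb. For R40D3 against R0D3 in WT it recovered 185, with 9 false calls. DESeq2 1.42.0, other scalings, filters and left-out libraries were alternatives.

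In the cultures same-numbered libraries deviated together from their group means (r of 0.343 to 0.609 over 6 pairs of groups), so the numbers were taken to pair the samples, a pairing seen in the data. The main fit did not use this pairing, so its p-values are unpaired. The fit with the replicate number as a block, which uses it, was run as an alternative. In each of the 6 groups the replicates differed beyond sampling noise.

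Named genes were those called (up to 8 of smallest p, or 3 not passing), the 2 highest and 2 lowest folds, the 3 highest and 3 lowest levels per kilobase in WT forelimb and WT R0D3, members missing the filter, 12 chosen for their role, up to 3 per pathway list, and Impdh2. Members and lists were chosen with earlier results of these data known.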

Additional observations from a re-analysis of the deposited data

Results flagged for a closer look

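Some members differed in opposite directions in the 2 knockouts. In 25 of the 77 members tested in both sets, both knockout libraries lay above both WT libraries in the forelimb and below both at R40D3, against 6.27% of the 13244 genes tested in both, and 0 members showed the reverse. Of these, 7 were named in both comparisons, and the difference between the 2 effects was not tested. In the single comparisons 56 members lay above WT in the forelimb and 30 below at R40D3. The joint count follows in part from these 2 shifts, and whether it exceeds what they give was not tested. For Mrpl12 the log2 fold change was 0.58 in the forelimb and -0.40 at R40D3, a difference of 0.98. It was 0.77 and -0.34 for Mrps18b, a difference of 1.117, and 0.42 and -0.36 for Mrps18a, a difference of 0.79. Mrps30 was at 0.49 and -0.29, a difference of 0.78, and Mrps7 at 0.45 and -0.18, a difference of 0.63. Mrpl58, at 0.31 and -0.24, differed by 0.55, and Mrps2, at 0.31 and -0.21, by 0.51. The 2 sets differ in tissue, Cre driver and count table, which cannot be told apart here, and edgeR called none of these 7 members in either comparison, while DESeq2 called Mrps18b in the forelimb. With 1 library left out, the forelimb value of Mrpl12 lay between 0.33 and 0.81 and its R40D3 value between -0.70 and -0.14. At R40D3 Mrps18a ranged from -0.68 to -0.092, Mrps2 from -0.35 to -0.040, Mrps7 from -0.31 to -0.050 and Mrpl58 from -0.36 to -0.096. Among the other members with opposite directions, Mrpl55 differed by 1.17 and Mrps24 by 1.06.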

How the results depend on the processing

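Each group held 2 libraries, and leaving 1 out leaves an arm whose lone sample is assumed to vary like the other groups. Without 1 library, the number of members called ran from 1 to 22 for R40D3 against R0D3 in WT (31 with all) and from 0 to 17 in LysM-cKO (13 with all). The member median ran from 0.19 to 0.50 for that comparison in LysM-cKO, from -0.34 to -0.035 for LysM-cKO against WT at R40D3, from -0.17 to 0.014 at R0D3 and from -0.27 to 0.036 for the interaction. Forelimb and WT culture medians kept their sign in every left-out fit.

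With the replicate block, 50 members were called in WT and 40 in LysM-cKO for R40D3 against R0D3, and 0 in the comparisons of genotype and the interaction. In the forelimb, where 1 pair of groups gave r = 0.261, the numbers were not taken to pair the samples, and the block called 0 members with a median of 0.37.

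In the forelimb DESeq2 called 2 members. For R40D3 against R0D3, 18 of the 45 members sharing no exon with another gene were called in WT, a restriction chosen after seeing the data, and in LysM-cKO 7 were called with no low-count filter and 1 with only the compared groups. With library size alone the forelimb median of all genes moved to -0.13 and that of the members to 0.26, and 3 named members changed sign, Mrps36 in the forelimb (-0.036), Mrpl11 between genotypes at R40D3 (0.015) and Mrps12 for R40D3 against R0D3 in WT (0.0085).

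Signs of some named members also changed when 1 library was left out. The ranges were -0.023 to 0.34 for Mrpl41, -0.24 to 0.043 for Mrpl50 and -0.019 to 0.14 for Mrps36 in the forelimb. At R40D3 between genotypes they were -0.27 to 0.21 for Mrpl11, -0.016 to 0.36 for Mrpl33 and -0.11 to 0.0093 for Mrps18c, and at R0D3 -0.10 to 0.78 for Mrps28. For R40D3 against R0D3 they were -0.30 to 0.076 for Mrpl33 and -0.052 to 0.051 for Mrps12 in WT, and -0.37 to 0.20 for Mrpl14, -0.25 to 0.048 for Mrps11, -0.13 to 0.031 for Mrps12 and -0.029 to 0.23 for Mrps18c in LysM-cKO. For the interaction they were -0.046 to 0.47 for Mrpl23 and -0.020 to 0.36 for Mrpl9. In the comparisons of genotype and the interaction the main fit called no named member, so a value there keeps its side by staying uncalled. Of 785 values of named members under the other settings 751 kept their direction and side of the threshold. With 1 library left out 300 of 388 did, 22 changed sign and 65 fell short of the threshold. The causes were not tested.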
